A study of Mus musculus with 15 samples.

Results

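Csf1, Csf2 and Csf1r encode 2 colony-stimulating factors and the receptor of one of them, and they were followed through 3 cell fractions of macrophages activated with lipid A. They were taken by gene symbol from the deposited table of exon RPKM (reads scaled to exon length and library size), where they are 3 of 10020 listed transcripts. Csf1 and Csf2 also appear in the authors' second table, 560 genes with values over the whole gene, introns included, and Csf1r does not. The cells were bone marrow-derived macrophages of C57BL/6 mice of both sexes, grown from marrow in medium with M-CSF. All groups were therefore grown with the protein product of the Csf1 gene in their medium, the 0 min cells included.

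Lipid A, a bacterial membrane lipid sensed through Toll-like receptor 4, was given at 100 ng/ml for 15, 30, 60 or 120 min, and the cells at 0 min were unstimulated. RNA came from the chromatin pellet, which holds transcripts still tied to DNA, from the soluble nucleoplasmic extract and from the cytoplasm. Each fraction and time had 1 library, which gave 15 libraries and no replicate of any of them. Whether fractions of 1 time shared plates, and how many mice gave marrow, is not in the labels. The reads behind each value could be recovered, and the libraries held 38.8 to 52.3 M reads in chromatin, 24.5 to 31.4 M in nucleoplasmic and 15.6 to 19.9 M in cytoplasmic RNA. RPKM is relative to each library, so a level in one fraction set beside another is a share of that fraction's RNA and not an amount per cell. Intervals given with ratios are 95% exact binomial intervals on the reads, and they cover counting error only.

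Csf1 encodes M-CSF, the growth factor that keeps macrophages and their precursors alive and growing. Csf2 encodes GM-CSF, a cytokine that activates myeloid cells and that many cell types release only once they are stimulated. Csf1r encodes the M-CSF receptor, a receptor tyrosine kinase that marks the macrophage lineage, while GM-CSF acts through a different receptor with an alpha chain and a shared beta chain. Short-lived cytokine mRNAs often carry AUUUA pentamers in the 3' UTR, where proteins such as tristetraprolin bind and shorten their lifetime.

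The ligands differ in the sequences around their genes. The authors' promoter type is CpG for Csf1 and LCG for Csf2. The windows below run from 250 bases before to 50 after the RefSeq start on GRCm38.p6, both on the minus strand, chr3:107760420-107760719 for Csf1 and chr11:54249850-54250149 for Csf2. They are shown because the authors sort the ligands by promoter, and the capitals mark each CpG.
Csf1 window: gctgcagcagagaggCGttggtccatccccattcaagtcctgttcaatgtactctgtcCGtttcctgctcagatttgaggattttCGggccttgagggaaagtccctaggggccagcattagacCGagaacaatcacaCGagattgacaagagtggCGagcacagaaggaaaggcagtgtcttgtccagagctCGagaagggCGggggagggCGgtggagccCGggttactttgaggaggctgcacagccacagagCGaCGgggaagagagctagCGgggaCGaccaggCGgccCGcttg
Csf2 window: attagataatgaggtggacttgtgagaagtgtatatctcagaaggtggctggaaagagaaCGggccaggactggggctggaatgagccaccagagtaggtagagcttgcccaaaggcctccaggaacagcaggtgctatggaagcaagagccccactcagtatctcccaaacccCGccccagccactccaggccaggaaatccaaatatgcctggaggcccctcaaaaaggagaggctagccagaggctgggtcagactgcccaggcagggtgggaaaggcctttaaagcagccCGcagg

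The Csf1 window held 16 CpG and the Csf2 window 3, against a median of 7 over the 32851 promoter windows of the RefSeq table. These counts were above those of 67.0% of all windows for Csf1 and of 23.3% for Csf2, although their GC content was alike at 58.7% and 56.7%. The letters GGG and CC with any 5 bases between them, which many NF-kappaB sites match, occurred on either strand at 5 overlapping or separate positions in the Csf1 window and at 1 in the Csf2 window, and 50.8% of all windows hold them. No match to TGANTCA (AP-1 sites) or TATAAA was in either window, against 7.81% and 13.6% of all windows. The GENCODE start of Csf2 lies 232 bases downstream of the RefSeq start and outside the window shown, so the sequence just before that start was not searched.

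The 3' UTRs of the GENCODE transcripts differ more. That of Csf2 is 317 bases long and holds 9 copies of ATTTA and 4 overlapping copies of the longer element TTATTTATT. Among 17041 genes with a 3' UTR of that length or more, 3 (0.0176%), Csf2 included, had as many pentamers in their last 317 bases, and 2.12% had the longer element. That of Csf1 is 2111 bases long with 4 pentamers, a number that 48.8% of 5643 genes reach over the same length, and with no copy of the longer element. The window of the Csf2 3' UTR with the most pentamers, bases 230 to 259 after the stop codon, is printed because so few genes have as many. RNA lifetimes were not measured, and a part of these pentamers in the Csf2 levels was not tested. Capitals mark 5 pentamers that overlap by a base.
Csf2 3' UTR: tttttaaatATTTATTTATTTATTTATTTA

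Csf1 RNA rose with lipid A in all 3 fractions and was still high at 120 min, Csf2 RNA was near 0 up to 15 min, peaked at 60 min and was low again at 120 min, and Csf1r stayed among the most abundant transcripts throughout. Changes were measured as the log2 ratio of RPKM + 0.5 to the 0 min library of the same fraction, and a gene was called at 4-fold or more at any time. Csf1 and Csf2 were called higher in every fraction and Csf1r in none in either direction. Of all genes at 1 RPKM or more, 6.51% were called higher and 3.91% lower in chromatin, 4.84% and 2.81% in nucleoplasmic, and 4.48% and 1.88% in cytoplasmic RNA. These calls have no replicate check, and in RNA of a whole culture fewer cells of a type cannot be told apart from less RNA per cell.

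**Figure D1:**
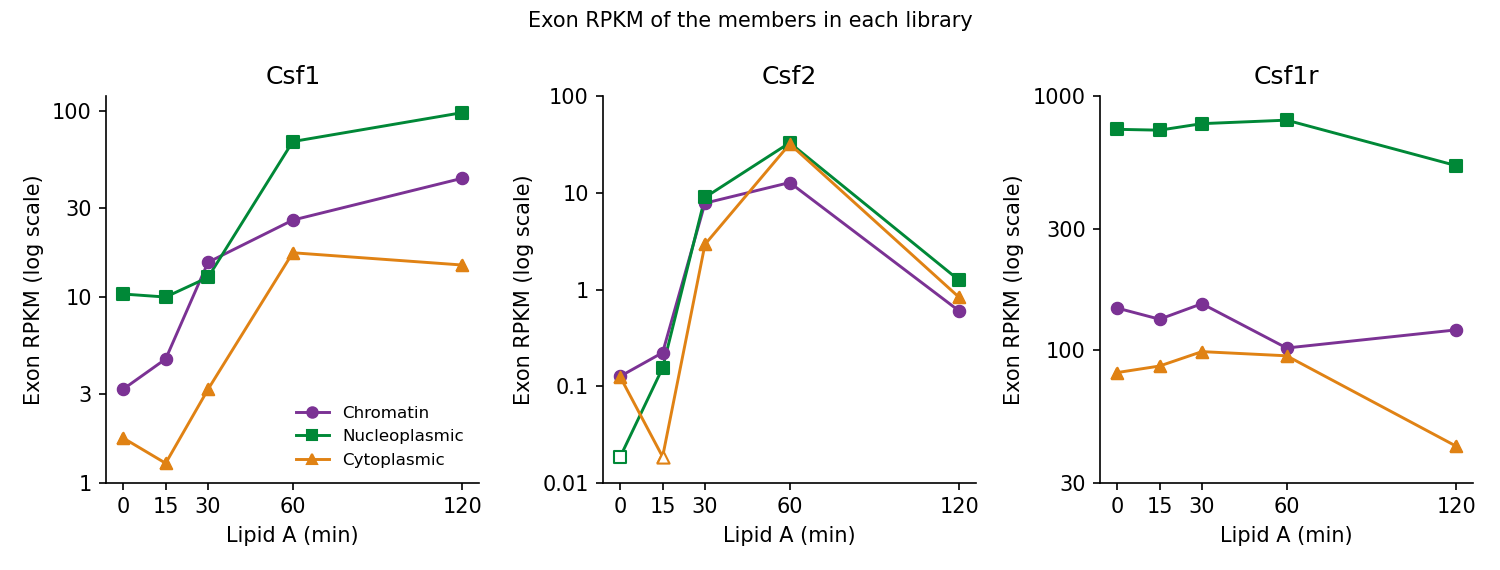
Exon RPKM on a log axis (vertical) against minutes of lipid A (horizontal) for Csf1, Csf2 and Csf1r, 1 point per library, with open symbols for the 2 Csf2 values that rest on no read. Csf1 reaches 98.2 RPKM in nucleoplasmic RNA at 120 min, Csf2 peaks at 60 min in every fraction, and Csf1r keeps its order of nucleoplasmic, chromatin and cytoplasmic RNA at all times.

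The ligand Csf1 had 3.19, 4.63, 15.4, 25.9 and 43.5 RPKM in chromatin RNA at 0, 15, 30, 60 and 120 min. In nucleoplasmic RNA it had 10.4, 9.98, 12.7, 68.6 and 98.2 RPKM. In cytoplasmic RNA it had 1.74, 1.27, 3.18, 17.3 and 14.8 RPKM. The chromatin level was already higher at 15 min, while the nucleoplasmic level differed little from its 0 min value until the 60 min library. In reads, the ratio of 30 to 0 min was 4.82 (4.41 to 5.27) in chromatin, 1.23 (1.13 to 1.33) in nucleoplasmic and 1.83 (1.46 to 2.31) in cytoplasmic RNA. By 60 min the ratios to 0 min were 8.13 in chromatin, 6.63 in nucleoplasmic and 9.95 in cytoplasmic RNA, and by 120 min they were 13.7, 9.48 and 8.55. Between neighbouring libraries the nucleoplasmic step was largest between 30 and 60 min, at 5.39-fold (5.08 to 5.72), and the cytoplasmic step at the same interval was 5.44-fold (4.73 to 6.28). The chromatin level had its largest step earlier, 3.32-fold (3.08 to 3.57) between 15 and 30 min.

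The median gene also moved between libraries, and its log2 ratio to 0 min was -0.34 in chromatin, -0.47 in nucleoplasmic and -0.49 in cytoplasmic RNA at 120 min, and 0.39 in cytoplasmic RNA at 60 min. Relative to these medians, cytoplasmic Csf1 stood at 2.60 at 60 min and at 3.27 at 120 min, so the order of those times turns round with the scaling. The Csf1 maxima relative to the median were 3.92 in chromatin and 3.66 in nucleoplasmic RNA, both at 120 min. Each library's median log2 ratio was also set to 0, a setting named below as the library medians set to 0. It gave 820 genes called higher and 161 lower in chromatin RNA, against 578 and 347 as deposited. The same split was 623 and 109 against 451 and 262 in nucleoplasmic RNA, and 533 and 70 against 414 and 174 in cytoplasmic RNA.

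Over the 3 fractions, Csf1 was 7.13-fold higher at 60 min than at 0 min (log2 2.83, SE 0.29, adjusted p = 5.56e-08) and 9.07-fold higher at 120 min (log2 3.18, SE 0.29, adjusted p = 2.68e-09). Both come from limma on all 9441 genes at 1 RPKM or more in 3 or more libraries, with time and fraction as terms, and the calls needed a 2-fold difference and an adjusted p under 0.05. The direction was the same in 3 of 3 fractions at both times, and the 60 min call was lost without the fraction term (adjusted p = 0.209). The fit called 5.08% of genes higher at 60 min and 8.55% at 120 min. At 30 min the difference was 1.04 (SE 0.29, adjusted p = 0.0456), a call that 2.49% of genes shared. It missed the threshold with any 1 fraction left out, where the difference was 0.50 without chromatin, 1.41 without nucleoplasmic and 1.195 without cytoplasmic RNA. At 15 min the difference was 0.03 with a 95% interval of -0.56 to 0.62, at a time when 0.519% of genes were called higher. The fractions stand in for replicates in these tests, so the p-values speak to what the fractions share and not to separate cultures.

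Reads outside the exons gave a second view of Csf1. The whole-gene value of Csf1 spans 19423 bases against 4176 exon bases in 9 exons, and the exon reads were subtracted from the whole-gene reads to leave those outside. These reads numbered 527, 1957, 5419, 4172 and 3333 in chromatin RNA at 0, 15, 30, 60 and 120 min. They made up 46.3, 65.9, 66.7, 48.4 and 32.1% of the gene's reads at those times. Their density was 0.752, 2.45, 8.43, 6.67 and 5.64 RPKM, so it was highest at 30 min, while the exon level was highest at 120 min. Between 60 and 120 min the density outside the exons had a ratio of 0.845 (0.807 to 0.885), while the exon level had a ratio of 1.68 (1.62 to 1.74).

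In nucleoplasmic RNA 60, 416, 643, 536 and 509 Csf1 reads lay outside the exons, and in cytoplasmic RNA 14, 18, 41, 70 and 62 did. At 15 min nucleoplasmic reads outside the exons stood at 5.63-fold (4.28 to 7.50) of the 0 min density, while the exon level was at 0.964-fold (0.889 to 1.04). The share of nucleoplasmic Csf1 reads outside the exons was 5.16, 24.1, 32.7, 7.10 and 3.93% at the 5 times. Of the 15246 bases outside these exons, 1105 belong to exons of other annotated Csf1 isoforms, and the 2 cannot be separated in whole-gene values.

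An earlier peak outside the exons than in them was not rare. Among the 452 genes of the second table with at least 20 such reads in a chromatin library, 79 (17.5%) had their highest density outside the exons at an earlier time than their highest exon level. In the authors' class D, which holds Csf1, it was 24 of 82. In nucleoplasmic RNA it was 188 of 439 (42.8%).

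**Figure D2:**
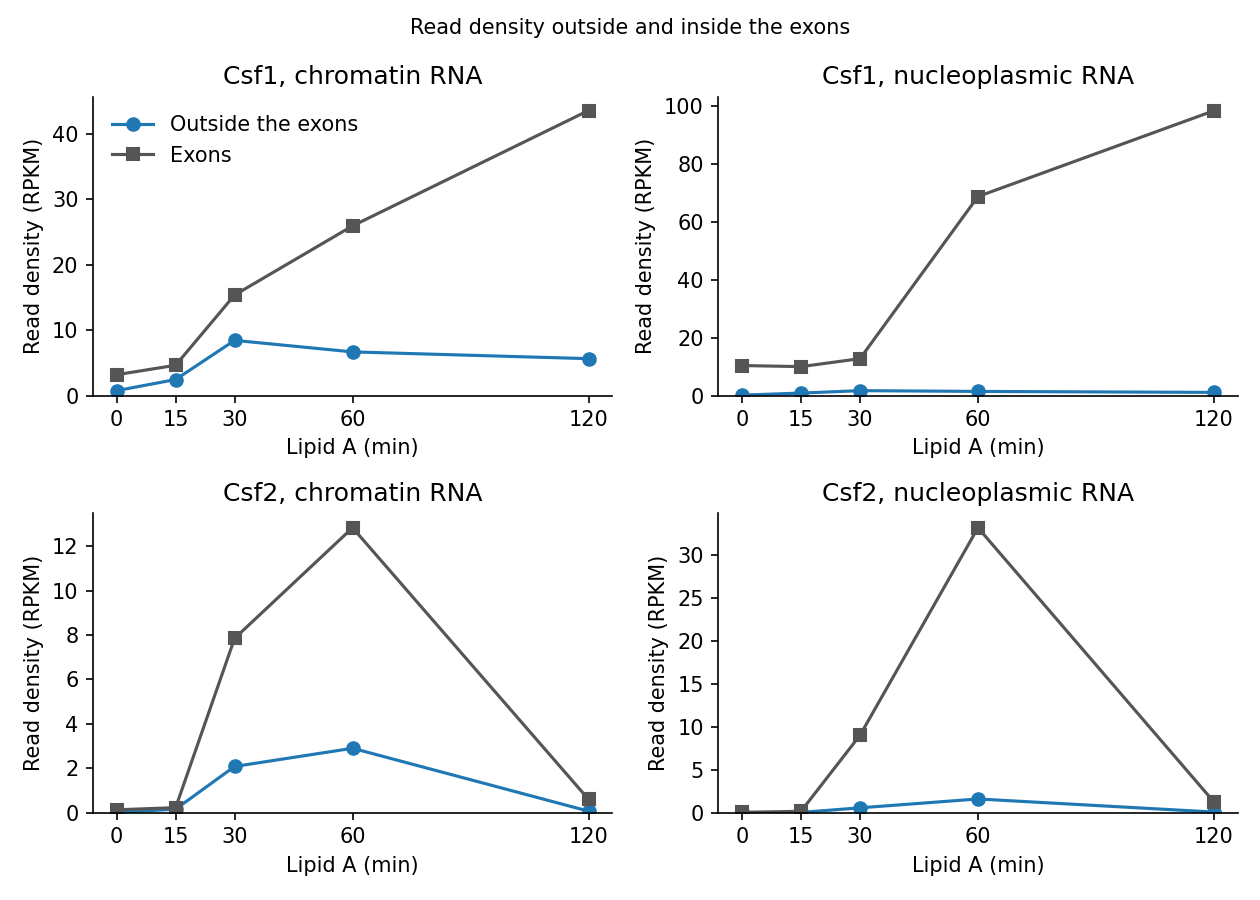
Read density in RPKM (vertical, linear, from 0) outside the exons and in the exons, against minutes of lipid A (horizontal), for Csf1 and Csf2 in chromatin and nucleoplasmic RNA. The chromatin density of Csf1 outside the exons is highest at 30 min with 8.43 RPKM while the exon density goes on to 43.5 RPKM at 120 min, and both densities of Csf2 peak at 60 min.

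Csf2 was at or close to 0 in unstimulated cells. In chromatin RNA it had 0.126, 0.222, 7.85, 12.8 and 0.599 RPKM at 0, 15, 30, 60 and 120 min, from 6, 12, 342, 544 and 24 reads. In nucleoplasmic RNA there were 0, 5, 231, 838 and 39 reads, or 0.154, 9.004, 33.2 and 1.25 RPKM at 15, 30, 60 and 120 min. In cytoplasmic RNA there were 2, 0, 53, 606 and 17 reads, or 0.124, 2.94, 32.2 and 0.829 RPKM at 0, 30, 60 and 120 min. Every fraction was highest at 60 min and low at 0, 15 and 120 min. The libraries without a read allow up to 0.114 RPKM in nucleoplasmic RNA at 0 min and up to 0.173 RPKM in cytoplasmic RNA at 15 min, the worth of 3 reads.

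At 60 min Csf2 in chromatin RNA was 102-fold (46.4 to 278) above its 0 min level. Nucleoplasmic Csf2 was at least 291-fold higher at 60 min than the worth of 3 reads in the 0 min library. In cytoplasmic RNA the ratio was 259 (71.5 to 2147), against 2 reads at 0 min. The 120 min libraries held 4.74-fold (1.89 to 14.2) of the 0 min level in chromatin and 6.67-fold (1.58 to 59.5) in cytoplasmic RNA. In limma over the fractions Csf2 was higher by a log2 difference of 3.46 at 30 min (SE 0.33, adjusted p = 3.95e-08), 5.38 at 60 min (SE 0.33, adjusted p = 2.17e-11) and 1.22 at 120 min (SE 0.33, adjusted p = 0.00416), in 3 of 3 fractions each time. At 60 min it ranked 17th of 9441 genes. The call at 120 min was lost without nucleoplasmic RNA, with a difference of 0.95 and an adjusted p of 0.112.

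Csf2 was lower in every fraction at 120 min than at 60 min. The ratio of 120 to 60 min was 0.0467 (0.0296 to 0.0702) in chromatin, 0.0375 (0.0265 to 0.0517) in nucleoplasmic and 0.0257 (0.0149 to 0.0415) in cytoplasmic RNA, or 21.4-, 26.6- and 38.9-fold lower. The intervals of the fractions overlap, so an order between them was not detectable at this depth. Csf2 has 4 exons in GENCODE, and chromatin reads outside the exons were 0, 13, 140, 190 and 4 at the 5 times. Their ratio of 120 to 60 min was 0.0223 (0.00601 to 0.0580), an interval that overlaps that of the exons.

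Csf2 stood at the edge of its class in this loss. Over the whole gene the log2 ratio of 120 to 60 min was -3.24 in chromatin, -3.82 in nucleoplasmic and -3.91 in cytoplasmic RNA. The medians of the 56 genes of the authors' class B were -1.69, -0.19 and -0.18 in the same order. Of those 56 genes, 2 lay below Csf2 in chromatin RNA and 0 in nucleoplasmic or cytoplasmic RNA. Csf1 had log2 ratios of 0.34, 0.46 and -0.20, against medians of 0.43, 0.78 and 0.47 for the 97 genes of class D, and 7 of them lay below it in cytoplasmic RNA. The class table was chosen by the authors for induction in chromatin RNA, so these ranks describe Csf2 among induced genes only. Gm12223, an antisense gene, overlaps Csf2, and the sources used here do not say whether counting used the strand, so reads of the pair cannot be told apart.

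The balance between fractions turned over for Csf2. At 30 min the cytoplasmic level was 0.374-fold (0.274 to 0.50) of the chromatin level, and at 60 min it was 2.51-fold (2.23 to 2.82). The nucleoplasmic level was 1.15-fold (0.966 to 1.36) of the chromatin level at 30 min and 2.58-fold (2.32 to 2.88) at 60 min. The cytoplasmic level of Csf1 was lowest relative to chromatin at 30 min, and it was 0.545, 0.274, 0.207, 0.667 and 0.341-fold of the chromatin level at 0, 15, 30, 60 and 120 min. Its nucleoplasmic level was 3.25, 2.16, 0.829, 2.65 and 2.26-fold of the chromatin level at the same times, so chromatin was higher at 30 min and nucleoplasmic RNA at the other times.

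The receptor Csf1r was abundant at all times. In chromatin RNA it had 146, 132, 152, 102 and 120 RPKM at 0, 15, 30, 60 and 120 min. In nucleoplasmic RNA it had 742, 737, 781, 807 and 534 RPKM, and in cytoplasmic RNA 81.5, 86.5, 98.6, 94.9 and 41.8 RPKM. It ranked between 19th and 404th of the 10020 transcripts in every library. Its lowest nucleoplasmic and cytoplasmic values were those of 120 min, and the cytoplasmic one was 0.513-fold (0.490 to 0.536) of the 0 min level. Over the fractions the 120 min difference was -0.57 (SE 0.27, 95% interval -1.13 to -0.02, limma adjusted p = 0.0789), lower in 3 of 3 fractions and short of the threshold, in a comparison that called 16.8% of genes lower. The median gene differed by -0.43 in the same comparison. Relative to the median log2 ratio of all genes, Csf1r at 120 min stood at 0.05 in chromatin, 0.00 in nucleoplasmic and -0.46 in cytoplasmic RNA. At 15, 30 and 60 min its differences were -0.02, 0.13 and -0.06, with 95% intervals that together span -0.61 to 0.69. Hmgxb3, which overlaps the end of Csf1r on the opposite strand, lay between 2.26 and 5.28 RPKM.

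The members were distributed over the fractions in different ways. In the limma tests of fractions the 5 times stand in for replicates. The p-values therefore speak to what the times share and not to separate cultures. Csf1r was 5.50-fold higher in nucleoplasmic than in chromatin RNA (log2 2.46, SE 0.21, limma adjusted p = 4.20e-10) and 9.17-fold lower in cytoplasmic than in nucleoplasmic RNA (log2 -3.20, SE 0.21, adjusted p = 4.41e-12), in 5 of 5 times each. It was the 193rd highest of 9441 genes in the first difference and the 61st lowest in the second. The medians of all genes in these differences were 0.88 and 0.10. Csf1 was 4.81-fold lower in cytoplasmic than in nucleoplasmic RNA (log2 -2.27, SE 0.22, adjusted p = 3.42e-09) and 2.45-fold lower in cytoplasmic than in chromatin RNA (log2 -1.29, SE 0.22, adjusted p = 1.25e-05). For Csf2 no difference between fractions passed the test. Its 95% intervals were -0.57 to 0.49 for cytoplasmic minus chromatin and -0.17 to 0.88 for nucleoplasmic minus chromatin RNA. For cytoplasmic minus nucleoplasmic RNA the interval was -0.92 to 0.13. These means do not show an even spread of Csf2, because differences of opposite sign cancel in them. At single times cytoplasmic minus chromatin Csf2 ran from -1.28 to 1.29, with a mean of -0.04. Some of the times averaged also had few Csf2 reads. The background was large here, since 44.1% of genes were called higher in nucleoplasmic than in chromatin RNA, 16.6% lower in cytoplasmic than in nucleoplasmic RNA and 5.14% lower in cytoplasmic than in chromatin RNA.

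Some of these calls depend on the fit. Csf1 in nucleoplasmic minus chromatin RNA was at 0.98 (adjusted p = 0.000345), just under the 2-fold line. Csf1r in cytoplasmic minus chromatin RNA was at -0.74 (adjusted p = 0.00266) against a median of 0.76 over all genes, and it was at -1.54 and called lower once each library was centred on its median. The Csf1 differences rest on comparing fractions within a time, and without the time term their adjusted p was 0.209 for cytoplasmic minus chromatin and 0.0536 for cytoplasmic minus nucleoplasmic RNA.

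**Figure D3:**
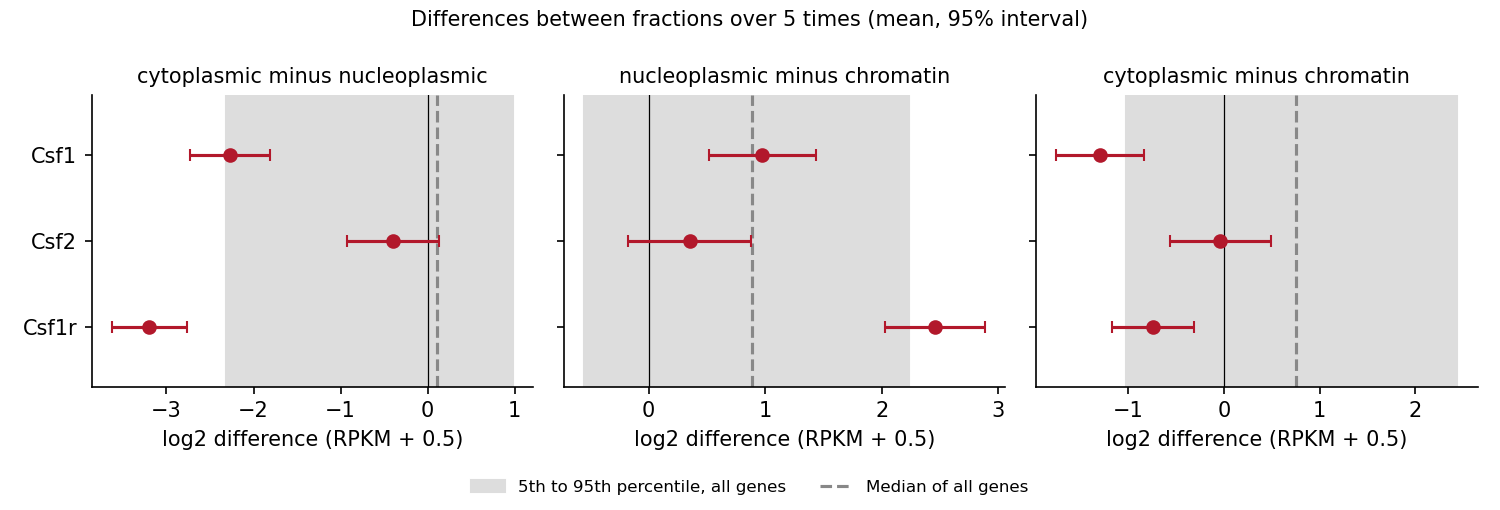
The log2 difference of RPKM + 0.5 between fractions (horizontal) for the members (rows), as the limma mean over 5 times with its 95% interval, over the 5th to 95th percentile of all 9441 genes (grey) and their median (dashed). Csf1r lies outside the grey band at -3.20 for cytoplasmic minus nucleoplasmic and at 2.46 for nucleoplasmic minus chromatin RNA. The 3 intervals of Csf2 include 0, and the Csf2 means average times with differences of opposite sign.

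The family's other receptors were also measured. Of 10 further ligands and receptors chosen, Csf2ra, Csf2rb, Csf2rb2, Csf3r and Il3ra were among the 10020 transcripts, and 0 of 5 were called with lipid A in any fraction, or at any time in limma. With 6.51% of all genes called higher and 3.91% lower in chromatin RNA, and fewer in the other fractions, a count of 0 among 5 is near the background. Csf2ra, the GM-CSF receptor alpha chain, had 36.6, 45.7, 62.1, 52.6 and 55.3 RPKM in chromatin RNA at the 5 times. Csf2rb, the shared beta chain, had 22.1, 20.1, 24.4, 22.3 and 24.0 RPKM in nucleoplasmic RNA. Csf2rb2 is its near-identical copy, so reads may be split between them. All 5 receptors were lower in cytoplasmic than in nucleoplasmic RNA, by log2 differences between -1.95 for Csf2rb2 and -1.03 for Il3ra, with a median of -1.47 against 0.10 for all genes. Csf1r was lower still at -3.20. Such a difference was not particular to these receptors, since 16.6% of all genes were called lower in this comparison. Of the 4 shedding genes taken up below 3 were called lower, Adam17 at -3.03, Adam10 at -2.84 and Rhbdf2 at -1.515. Of the 29 signalling genes taken up next 1 was, with a list median of 0.18. Csf2ra and Csf3r, the G-CSF receptor, were also lower in cytoplasmic than in chromatin RNA, at -1.76 and -2.02.

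Among 29 genes that relay signals from these receptors, 5 were called higher and 1 lower in chromatin RNA. Jak2, the kinase bound to the GM-CSF receptor, had 78.9 RPKM at 120 min against 3.84 at 0 min. Stat5a, a transcription factor it activates, had 14.2 against 1.18 RPKM at the same times. Src, a tyrosine kinase, and Pik3r5, a regulator of PI3-kinase, were higher by 3.11 and 2.02 on the log2 scale. Inpp5d, the phosphatase SHIP1 that opposes PI3-kinase, was lower, with 3.41 RPKM at 120 min against 21.5 RPKM at 0 min. The median of the list at 120 min was 0.07, against -0.34 for all genes in chromatin RNA. In nucleoplasmic RNA 3 were called higher and 2 lower, and in cytoplasmic RNA 4 and 1, and with the library medians set to 0 these were 5 and 0 in both fractions. Over all genes the chromatin libraries had 6.51% called higher and 3.91% lower, the nucleoplasmic ones 4.84% and 2.81%, and the cytoplasmic ones 4.48% and 1.88%.

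The feedback genes of cytokine and growth factor signalling moved in larger numbers. In chromatin RNA 6 of 9 measured were called higher and 1 lower, against 6.51% and 3.91% of all genes. The list median at 120 min was 2.19, against -0.34 for all genes. The list was chosen with earlier results of these data known. Socs3, an inhibitor of cytokine receptors, had 67.5 RPKM at 120 min against 0.742 RPKM at 0 min. Socs1 and Cish, inhibitors of JAK and STAT5 signalling, were higher by 3.89 and 3.53 on the log2 scale at 120 min. Pim1 and Dusp4, a kinase and a MAP kinase phosphatase, peaked at 30 min in chromatin RNA with log2 ratios of 3.27 and 3.24. Dusp6, the ERK phosphatase, was lower, with 0.462 RPKM at 60 min against 11.3 RPKM at 0 min.

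Transcription factors that act on the Csf1r gene were called in both directions, and Csf1r itself was not called. A link between their RNA and that of Csf1r was not tested. Of 15 measured in chromatin RNA, 8 were called higher and 3 lower, or 8 and 1 with the library medians set to 0. Over all genes 6.51% were called higher and 3.91% lower there as deposited. The list median at 120 min was 0.11 in chromatin RNA, against -0.34 for all genes. It was -0.84 in nucleoplasmic RNA, against -0.47, and -0.29 in cytoplasmic RNA, against -0.49. Sfpi1, which encodes PU.1, had 12.3, 14.2, 17.4, 20.8 and 32.7 RPKM in chromatin RNA at the 5 times and was not called. Ets2 and Cebpb were higher by 3.09 and 2.97 on the log2 scale, Irf8 by 2.58, and Tcfec, a MiT-family factor of macrophages, by 2.76. Maf and Fli1 were lower by 2.24 and 2.57 on the log2 scale. Relative to the median gene they stood at -1.77, under the 4-fold line, and at -2.23. In limma over the fractions at 120 min, 5 of 17 genes of this list were called higher and 5 lower. Cebpa at -2.47 and Runx1 at -1.29 were among the lower ones. In that comparison 8.55% of all genes were called higher and 16.8% lower.

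Genes of NF-kappaB, AP-1, NFAT and Sp1, which act on Csf1 or Csf2 transcription, and of NF-kappaB inhibitors were called higher for 8 of 14 and lower for 0 in chromatin RNA. Over all genes 6.51% were called higher and 3.91% lower there. The list median was 1.75 at 120 min against -0.34 for all genes. Junb, an AP-1 subunit, had 60.8 RPKM at 30 min against 2.41 RPKM at 0 min. Nfkbia, the NF-kappaB inhibitor, had 339 RPKM at 30 min against 16.8 RPKM at 0 min. Rel was at 42.8 RPKM at 60 min against 7.26 RPKM at 0 min. Nfkb2 was at 39.7 RPKM at 120 min against 3.67 RPKM at 0 min. In limma over the fractions at 120 min, 8 of the 14 were called higher and 2 lower. The lower ones were Nfatc1 at -1.63 and Nfatc2 at -1.74, while Sp1 and Nfat5 were not called. In that comparison 8.55% of all genes were called higher and 16.8% lower.

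Of 15 measured genes for proteins that bind or destroy AU-rich mRNA, 2 were called higher and 2 lower in chromatin RNA, or 3 and 2 with the library medians set to 0. Over all genes 6.51% were called higher and 3.91% lower there, so counts this small say little about the group, and the list median of -0.28 at 120 min was close to that of all genes. In the cytoplasm Zfp36, which encodes tristetraprolin, had 710 RPKM at 30 min against 15.4 RPKM at 0 min. Cytoplasmic Zc3h12a, an RNase that cleaves cytokine mRNAs, had 31.0 RPKM at 60 min against 1.62 RPKM at 0 min. Cytoplasmic Zfp36l2, a relative of tristetraprolin, had 0.970 RPKM at 120 min against 24.4 RPKM at 0 min. Cytoplasmic Zfp36l1 had a log2 ratio of 2.07 at 30 min and of -2.34 at 120 min, but relative to the median gene these were 1.93 and -1.85, both under the 4-fold line.

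Among 4 measured genes tied to the shedding of M-CSF and its receptor from the cell surface, 2 were called higher in chromatin RNA. They encode a partner of a protease and a protease inhibitor. Over all genes 6.51% were called higher there, and a list of 4 says little about the group. Rhbdf2, a partner that the protease ADAM17 needs to mature, had 25.9 RPKM at 120 min against 3.38 RPKM at 0 min. Timp1, a metalloprotease inhibitor, had 2.18 RPKM at 120 min against 0.0736 RPKM at 0 min. Adam17 itself was higher in limma over the fractions by 1.17 at 120 min (SE 0.27, adjusted p = 0.00097). In that comparison 8.55% of genes were called higher. Adam10 was at -0.40 there (SE 0.27, limma adjusted p = 0.219) and was not called. In cytoplasmic RNA 0 of 3 measured were called, where 4.48% of all genes were called higher and 1.88% lower. With the library medians set to 0, 3 were called higher in chromatin RNA and 1 in cytoplasmic RNA.

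**Figure D4:**
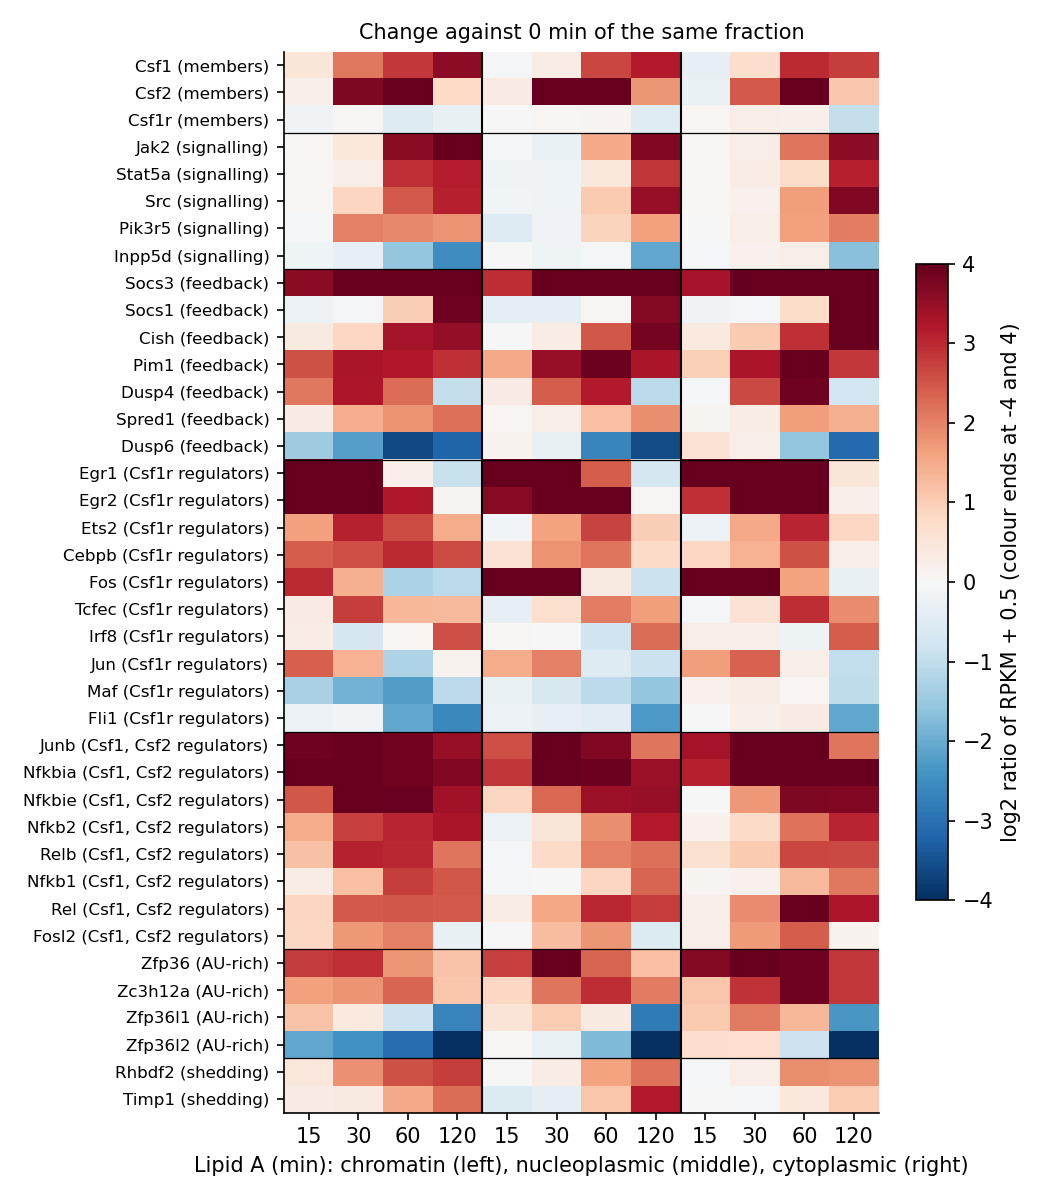
Log2 ratio of RPKM + 0.5 to 0 min of the same fraction (colour, ending at -4 and 4) for the members and 36 of the 38 list genes called in chromatin RNA (rows), by fraction and minutes of lipid A (columns). Csf2 is red at 30 and 60 min and pale at 120 min, Csf1 stays red from 60 to 120 min in all fractions, and Csf1r is pale throughout.

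The closest profiles to each member were found by Pearson correlation of log2(RPKM + 0.5) over the 15 libraries with 9440 other genes, a description in which all points share libraries and depth. Csf1 was closest to Rhbdf2 (0.99), F10 (0.98), Mmp13 (0.97), Slc31a2 (0.97) and Cd40 (0.96). Csf2 was closest to Mdm2 (0.96), Ifnb1 (0.95), Prdm1 (0.95), Il23a (0.95) and Cdk5r1 (0.94). Csf1r was closest to Hgsnat, Plod1, Abca2, Ugt1a6b and Ugt1a9, all at 0.99, and the Ugt1a genes share exons. Between members the values were 0.52 for Csf1 and Csf2, 0.42 for Csf1 and Csf1r and 0.12 for Csf2 and Csf1r.

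The cultures carried the markers of their label. All 10 macrophage markers were listed. Their summed level was 1461 to 2300 RPKM in chromatin, 10031 to 13177 in nucleoplasmic and 1339 to 2818 RPKM in cytoplasmic RNA. Lyz2 was the largest part of each sum, at 654 to 1179, 5484 to 9024 and 774 to 1922 RPKM in the same order. Of the markers of other cell types that release these cytokines, 3 of 12 for T and NK cells were listed, with none of the Cd3 genes, and their chromatin sum was 7.10 RPKM at 120 min against 25.9 RPKM at 0 min. Most of it was Cd28, at 5.48 RPKM at 120 min against 25.7 RPKM at 0 min, while Lck went the other way, at 1.54 against 0.0206 RPKM in chromatin and 3.24 against 0.0910 RPKM in cytoplasmic RNA. Stromal and endothelial cells had 2 of 12, Kdr and Pdgfrb, with no collagen gene. Their chromatin sum was 13.6 RPKM at 120 min against 2.48 RPKM at 0 min. Nearly all of it was Kdr, at 12.8 RPKM at 120 min against 2.47 RPKM at 0 min. Of the mast cell and basophil markers 1 of 10 was listed, Hdc, at 0.482 RPKM in chromatin RNA at 60 min, when Csf2 was highest, and at 9.20 RPKM at 120 min. The lists for neutrophils, B cells and erythroid cells had 9 of 13, 1 of 10 and 1 of 10 listed, with summed levels of at most 38.6, 1.51 and 5.74 RPKM in chromatin, 108, 10.5 and 39.96 RPKM in nucleoplasmic, and 79.9, 1.38 and 5.76 RPKM in cytoplasmic RNA. Nucleoplasmic sums reached 119 RPKM for T and NK cells, 29.3 for stromal and endothelial cells and 7.43 for mast cells and basophils, and cytoplasmic sums 26.5, 1.72 and 6.71 RPKM. The part of these cells in the levels of the members was not tested.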

How the data were processed

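The authors deposited RPKM values in both tables, per the file headers. Per the submitters' processing notes, TopHat and mm9 were used. For the aligner's version, the counter, the annotation and the use of strand, the entry is: not given in the sources used here. Nuclei were isolated over sucrose and lysed with detergent and urea, RNA was depleted of ribosomal RNA and libraries were strand-specific, per the labels' protocols. There were 3 further columns of per-sample values with no matching label, and these stayed out. For 10019 of 10020 genes 1 exon length turned all values into whole reads (tolerance 0.02 reads). At least 318 values without reads had been replaced by 0.0191 RPM (reads scaled to library size). The lowest maximum of a listed transcript was 1.00 RPKM. Exon lengths were 4176 bases for Csf1, 1033 for Csf2 and 3875 for Csf1r, and the GENCODE transcript of Csf2 is 233 bases shorter than the deposited length.

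Log2 ratios used RPKM + 0.5, which understates changes of low genes, and genes at 1 RPKM or more in the fraction. Limma 3.58.1 in R 4.3.3 with Benjamini-Hochberg adjustment was fitted over all genes. Both steps were tested on simulated data. Promoter sequences are from RefSeq (GRCm38.p6) and 3' UTRs from GENCODE on GRCm38, a later build than the files', and no file coordinates were used. Through older RefSeq names 2 list genes were matched (Sfpi1, Tcfec). The named genes are the members and the genes of 7 lists. Some genes counted in the lists are not reported here by name. Members and lists were chosen with earlier results of these data known. The alternatives were pseudocounts of 0.1 and 1, median scaling, dropped terms, and leaving out a time or fraction.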

Additional observations from a re-analysis of the deposited data

How the results depend on the processing

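With 1 library per fraction and time, no value has a replicate, and limma used the times or fractions as values. Of the alternative values for the members, 230 kept direction and call, 12 lost a call, 3 gained one and 13 changed sign. Csf1 and Csf2 kept their 4-fold calls within every fraction under all alternatives run for them. The cause of the changes below was not tested. Genes called with lipid A in chromatin, nucleoplasmic and cytoplasmic RNA were 925, 712 and 587. They were 1767, 1160 and 921 with a pseudocount of 0.1, and 407, 214 and 251 without the 120 min library, where fewer times could give a call. Centring each library left 2258 of 4375 calls for nucleoplasmic minus chromatin RNA. Without the fraction term 9, 65, 166 and 680 genes were called at 15, 30, 60 and 120 min, against 49, 257, 636 and 2396. Leaving out a fraction gave 189 to 435 calls at 30 min and 433 to 1107 at 60 min. No paired analysis was possible because each group has 1 library and so no replicate to pair by number, and the limma fits compared fractions within a time or times within a fraction instead.

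Signs turned for small differences of the members that were not called. The largest Csf1r log2 ratio was -0.52 in chromatin, -0.47 in nucleoplasmic and -0.96 in cytoplasmic RNA. It became 0.45 and 0.30 in chromatin and nucleoplasmic RNA after median scaling, and 0.12 and 0.27 in nucleoplasmic and cytoplasmic RNA without 120 min. Csf2 in cytoplasmic minus chromatin RNA was -0.04, became 0.0044 with a pseudocount of 1, and lay between -0.37 and 0.27 with a time left out, where 0.07 was the value without 15 min and 0.27 that without 30 min. Csf2 in nucleoplasmic minus chromatin RNA was 0.35 and became -0.51 after centring. At 15 min Csf1r (-0.02) became 0.020 after centring and lay between -0.078 and 0.037 with a fraction left out, Csf1 (0.03) lay between -0.19 and 0.21, and Csf2 (0.09) between -0.031 and 0.27. At 60 min Csf1r (-0.06) lay between -0.20 and 0.17. The turned values came without nucleoplasmic RNA for Csf2 and without chromatin RNA for the others. Csf1 at 30 min also missed the threshold with a pseudocount of 1 (adjusted p = 0.0604), after centring (adjusted p = 0.0502) and without the fraction term (adjusted p = 0.9998). Csf2 at 120 min missed it with a pseudocount of 1 (0.78, under 2-fold) and without the fraction term (adjusted p = 0.124).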
